A study of Saccharomyces cerevisiae with 12 samples.

Results

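Ergosterol is the main sterol of yeast membranes. The genes described here are the 33 genes of its synthesis, esterification and regulation, taken by their standard names from 6660 genes measured by RNA sequencing in 12 libraries of Saccharomyces cerevisiae, strain background BY4741. The libraries fall into 10 groups. In YPD, a rich glucose medium, they are mmm1Δ (2 libraries), mdm34Δ (1), the allele VPS13-D716H combined with mmm1Δ (1) or with sam37Δ (1), sam37Δ (1), VPS13-D716H alone (1), AFT1-C291F (1) and wild type (WT, 2). In a medium labelled clean YPD, WT was treated with the iron chelator BPS at 100 µM for 4 hours (1) or left untreated (1). Mmm1 and Mdm34 are subunits of ERMES, the tether between the endoplasmic reticulum (ER) and mitochondria. Sam37 belongs to the sorting machinery of the outer mitochondrial membrane, and Vps13 is a lipid transfer protein at membrane contacts. AFT1-C291F is titled Aft1-1up, an allele of the activator of iron uptake genes. Whether libraries of 1 group came from separate cultures is not stated, so p-values measure only the spread between these libraries, which may be technical.

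The pathway starts in the mevalonate steps, where acetyl-CoA is condensed and reduced to mevalonate and built up to farnesyl pyrophosphate. Squalene is then made, epoxidised and closed into lanosterol in the ER, and a series of late enzymes turns lanosterol into ergosterol. Many of the late steps need oxygen and iron, either as heme (the cytochromes P450 Erg11 and Erg5, cytochrome b5 and Dap1) or as non-heme iron (Erg25 and Erg3). Upc2 and Ecm22 are zinc cluster activators that respond to falling sterol and bind a sterol regulatory element in promoters of the pathway. Surplus sterol is stored as esters made by Are1 and Are2.

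The core of that element, TCGTATA, was searched on both strands in the 500 bases before each start codon in assembly R64. It was present in 9 of the 33 genes (27.3%), against 420 of all 6006 promoters searched (7.0%). The 9 genes were ERG13, ERG8, ERG1, ERG25, ERG3, CYB5, ERG28, ERG6 and ERG2, with 12 sites in all. UPC2, HES1 and ERG11, whose levels are described below, had no match in this window. The sites shown are a selection, without those of ERG25, ERG8 and ERG6 and the proximal site of ERG13. Capitals mark the core or its reverse complement TATACGA. The sites are printed with 10 bases on either side, read 5′ to 3′ on the strand of the gene. They lie at chrXII:253525-253551 and chrXII:253565-253591 (plus strand) for ERG3, chrVII:848789-848815 (minus strand) for ERG1, chrXIV:417561-417587 (minus strand) for CYB5, chrV:238278-238304 (minus strand) for ERG28, chrXIII:20733-20759 (minus strand) for ERG13 and chrXIII:667342-667368 (plus strand) for ERG2.
ERG3 distal site: aaccggggtgTATACGAggccgatggc
ERG3 proximal site: aaattcaggcTCGTATAagtggcacaa
ERG1 site: tagcgggcctTCGTATAgctcggccga
CYB5 site: aaaagaaagcTATACGAgatcgagata
ERG28 site: aacctaatctTATACGAactgaattaa
ERG13 distal site: ggaataagctTCGTATAtacaatagaa
ERG2 site: accacggcccTCGTATAagccgcaagg
The same core was found before 4 of 9 genes of sterol uptake and anaerobic mannoproteins, among them DAN1, at chrX:709894-709920 (minus strand), shown for comparison.
DAN1 site: tgccaagatcTATACGAggcctctaac
The core of the hypoxic repressor Rox1, ATTGTT, was far more common, in 20 of the 33 genes (60.6%) and in 48.9% of all promoters. The motif CGGNNNTANCGG of the heme activator Hap1 was in 0 of the 33 and in 0.3% of all promoters. No site of the sterol regulatory core overlapped another of these motifs.

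Values are FPKM, fragments per kilobase of gene scaled for library size, as the authors deposited them in 3 tables that were normalized separately, so libraries are compared only within a table. The first holds mmm1Δ replicate 1, mdm34Δ and WT replicate 1. The second holds the libraries of both VPS13-D716H double mutants, mmm1Δ replicate 2, sam37Δ, VPS13-D716H, AFT1-C291F and WT replicate 2. The submitters' description of WT replicate 2 names another table, which has no such column, so this library was placed by its title. The BPS library and its untreated WT library make up the third. MMM1, MDM34 and SAM37 were listed at 0 in every library labelled as lacking them. Depth is unknown. A ratio here is the difference in log2(FPKM + 1) between a pair of libraries, which understates changes at low levels. It was formed where the gene averaged at least 5 FPKM in the libraries compared, and 2-fold ratios are counted. Only mmm1Δ (2 pairs) and the VPS13-D716H allele (3 genetic backgrounds) have repeats and so a test. All other comparisons are of 1 library with 1 library and have no replicate check. In whole cultures, fewer cells with an mRNA and less of it per cell cannot be told apart.

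The top and the bottom of the order of FPKM levels were the same in the 3 WT libraries without BPS. ERG2, the sterol isomerase, was the highest of the 33 genes in all 3, with 2678 and 1343 FPKM in YPD and 1096 FPKM in clean YPD. ERG3, the C-5 desaturase, and ERG10, the acetyl-CoA acetyltransferase that opens the pathway, followed within the next 3 places. UPC2 ranked 32 and HES1, a sterol-binding protein of the oxysterol-binding family, ranked 33 in all 3. Places between them varied: ARE1 ranked 6 in WT replicate 1 and 25 in both others. None of the 33 genes was listed at 0 in any library. ERG7, ERG27 and ARE1 share their loci with overlapping genes and are uncertain, and 10 of the 33 genes were past 2-fold in none of the 11 ratios formed (ERG12, ERG8, IDI1, ERG20, ERG24, ERG29, ERG6, ERG4, ECM22 and SUT1).

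**Figure D1:**
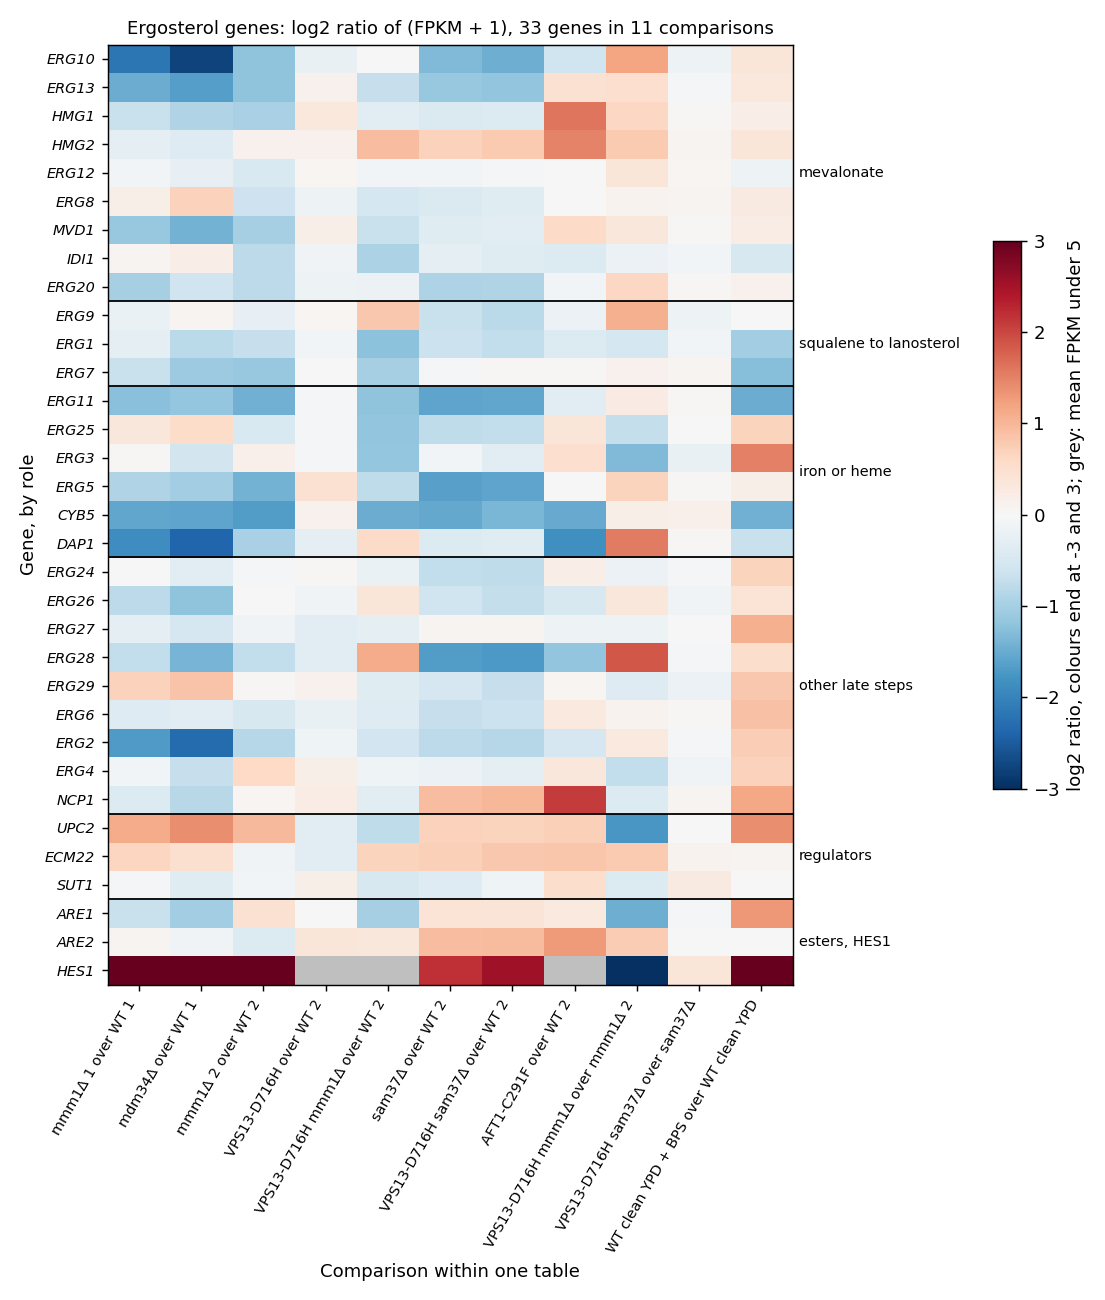
Log2 ratios of (FPKM + 1) for the 33 genes, listed by role, in the 11 comparisons of 1 library with another of the same table; grey cells did not pass the filter on low values. HES1 was 2.18 to 4.16 higher in mmm1Δ, mdm34Δ, both sam37Δ libraries and BPS. In these mutants it passed the filter through the mutant library. CYB5 was lower in 8 comparisons, and VPS13-D716H in a WT or sam37Δ background left all ratios shown within 0.5.

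In mmm1Δ, HES1 was the gene of the set that rose, while most enzymes had lower values than in WT. HES1 had 22.1 and 76.8 FPKM in mmm1Δ replicates 1 and 2, against 0.944 and 3.36 FPKM in WT replicates 1 and 2. Each mmm1Δ library was far above the WT library of its table. The mean ratio was 3.87 ± 0.32 (SE, 2 pairs; limma with a replicate block, Benjamini-Hochberg adjusted p = 0.000256). HES1 averaged under 5 FPKM in WT and entered the fit through the mmm1Δ libraries, and without that filter its adjusted p was 0.00102. Of the 33 genes, 1 rose and 0 fell, where 2.74% of all 6029 genes tested rose and 1.01% fell. At an unadjusted p under 0.05 there were 13 of the 33 and 1143 of all genes. Of the 33 mean ratios 27 were below 0, with a median of -0.26, against a median of 0.03 over all genes. All genes include many of low level. Among genes with a mean of at least 50 FPKM, the median ratio was -0.65 in the pair of replicate 1, with -0.70 for the members among them. It was -0.13 in the pair of replicate 2, with -0.61 for the members. The count of calls among the 33 depended on the fit: 0 on centred values without the replicate block, where HES1 had an adjusted p of 0.207, 3 with a pseudocount of 0.1, 3 with each library centred on its median, and 9 among longer genes alone at their locus.

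By role, the median of the mean ratios was -0.82 over the 9 mevalonate genes, -0.49 over the 3 genes from squalene to lanosterol, -1.26 over the 6 iron and heme genes and -0.19 over the 9 other late genes, with 0 calls in each. The mevalonate genes HMG2, ERG12, ERG8 and IDI1 lay between -0.06 and -0.34. ERG2, of the other late genes, had 819 and 740.2 FPKM in mmm1Δ, against 2678 and 1343 FPKM in WT, a mean ratio of -1.28 (limma adjusted p = 0.215). ERG10 had 350.4 and 377 FPKM in mmm1Δ, against 1572 and 866 FPKM in WT, a mean ratio of -1.68 (limma adjusted p = 0.0978). ERG13, the HMG-CoA synthase of the next step, had 68.6 and 167 FPKM in mmm1Δ, against 196 and 386 FPKM in WT, a mean ratio of -1.35 (adjusted p = 0.0985). Each mmm1Δ library lay below the WT library of its own table for both genes. Erg11 is the lanosterol demethylase, a heme enzyme that azole drugs inhibit. Its gene had 67.2 and 274 FPKM in mmm1Δ, against 163 and 751 FPKM in WT, a mean ratio of -1.36 (adjusted p = 0.103).

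CYB5, which codes for cytochrome b5, an electron donor to the late oxygen-dependent enzymes, came nearest to a call after HES1. It had 55.4 and 146 FPKM in mmm1Δ, against 165 and 464 FPKM in WT, a mean ratio of -1.61 (limma adjusted p = 0.0525). DAP1, a heme-binding partner of Erg11, had 48.4 and 101 FPKM in mmm1Δ, against 179.9 and 198 FPKM in WT, a mean ratio of -1.42 (adjusted p = 0.0916). ERG5, the C-22 desaturase, had 11.7 and 44.9 FPKM in mmm1Δ, against 22.7 and 123 FPKM in WT, a mean ratio of -1.16 (adjusted p = 0.0955). CYB5 and ERG5 passed the threshold with a pseudocount of 0.1 (CYB5 adjusted p = 0.0278) and with centring (0.0327).

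At least 2-fold higher in both pairs was 1 of the 33 genes (HES1), beside 4.07% of the 4986 genes measured in both. HES1 entered through the mmm1Δ library of each pair. At least 2-fold lower in both were 4 (ERG10, ERG13, ERG11 and CYB5), beside 4.37%. The non-heme iron enzymes had smaller ratios: ERG3 was at 0.04 and 0.16 in the pairs of the first and second table, and ERG25, the methylsterol oxidase, at 0.35 and -0.46. ERG1, the squalene epoxidase, was at -0.29 and -0.70, and ERG7, the lanosterol synthase, at -0.66 and -1.13. The ratio of ERG3 to ERG11 FPKM within a library, which no scaling of whole libraries can move, was 10.8 and 4.04 in mmm1Δ replicates 1 and 2, against 4.34 and 1.32 in WT replicates 1 and 2.

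Upc2 and Ecm22 are paralogs, and neither gene was called. UPC2 had 9.34 and 30.7 FPKM in mmm1Δ, against 3.74 and 15.1 FPKM in WT, a mean ratio of 1.05 ± 0.30 (SE; limma adjusted p = 0.105). ECM22 had 8.44 and 19.0 FPKM in mmm1Δ, against 5.03 and 20.7 FPKM in WT, a mean ratio of 0.27 (adjusted p = 0.728). The ratio of UPC2 to ECM22 within a library was 1.11 and 1.61 in mmm1Δ, against 0.744 and 0.728 in WT, a difference that was not tested. HMG1 and HMG2 code for HMG-CoA reductase, the regulated step of the mevalonate pathway, with HMG1 known as the form of aerobic, heme-sufficient cells. The ratio of HMG1 to HMG2 was 0.738 and 0.696 in mmm1Δ, against 1.02 and 1.54 in WT. In clean YPD it was 0.896 in untreated WT and 0.792 with BPS, so it also varied among WT libraries without BPS. The coding sequences of HMG1 and HMG2 were 65.9% identical and those of UPC2 and ECM22 56.0%, with longest identical runs of 23 and 29 nt.

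**Figure D2:**
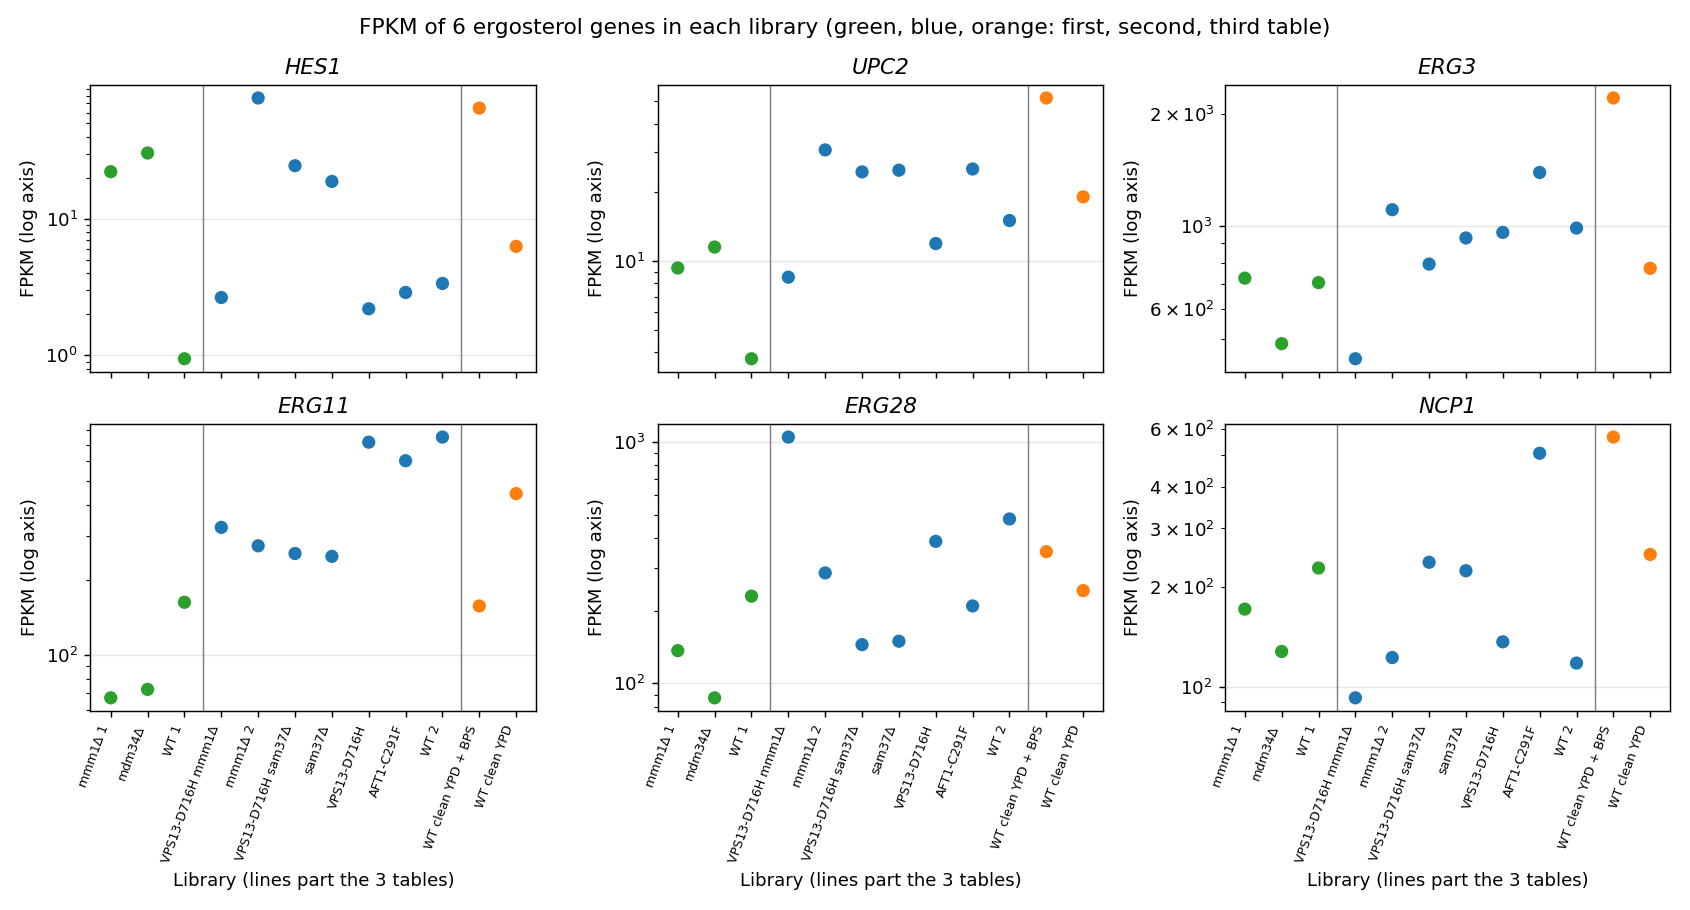
FPKM on a log axis in each of the 12 libraries, by table, for HES1, UPC2, ERG3, ERG11, ERG28 and NCP1; each point is 1 library, and levels are comparable within a table only. HES1 stood at 76.8 in mmm1Δ replicate 2, against 2.65 in VPS13-D716H mmm1Δ and 3.36 in WT replicate 2.

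Genes of sterol uptake and anaerobic cell wall mannoproteins, several of them known as Upc2 targets, rose as well. Of 9 such genes 7 rose and 0 fell, beside 2.74% and 1.01% of all genes. Of the 7, 4 averaged at least 5 FPKM in WT too, and the other 3, DAN1 among them, entered through the mmm1Δ libraries. Without the filter on low values 6 rose. DAN1, a mannoprotein of anaerobic cells, had 489 and 809 FPKM in mmm1Δ, against 2.36 and 1.78 FPKM in WT, a mean ratio of 7.69 (limma adjusted p = 2.77e-05, and 0.000294 without the filter). TIR1, another such mannoprotein, was well above the filter in WT and rose by 2.06 (adjusted p = 0.0415), a call lost without the filter (0.07). In a list of 11 genes of heme and oxygen control, 2 rose and 1 fell, beside the same shares of all genes. ANB1, the hypoxic form of translation factor eIF5A, rose by 3.38 (limma adjusted p = 0.00448). AAC3 rose by 1.47 (limma adjusted p = 0.034), a call lost without the filter (0.0515). The cytochrome c gene CYC1, a target of Hap1, had 83.3 and 71.5 FPKM in mmm1Δ, against 459.9 and 426 FPKM in WT, and fell by 2.50 (adjusted p = 0.0084). The rest of this list had mean ratios of either sign and no call: COX5B 0.96, OLE1 0.47, MGA2 0.46, HAP1 0.08, CYC7 -0.30, ROX1 -0.64, MOT3 -0.79 and HEM13 -0.81.

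In mdm34Δ, which lacks another ERMES subunit, 2 of the 33 genes were at least 2-fold higher and 12 lower than in WT replicate 1. The shares of all genes were 11.8% and 23.4%, and 52.6% of genes with a mean of at least 50 FPKM were lower. HES1 had 30.3 FPKM in mdm34Δ, against 0.944 FPKM in WT, and UPC2 had 11.5 FPKM in mdm34Δ, against 3.74 FPKM in WT. Both were under 5 FPKM in this WT library and passed the filter on low values through the mdm34Δ library. The 12 lower genes were ERG10, ERG13, MVD1, ERG7, ERG11, ERG5, CYB5, DAP1, ERG26, ERG28, ERG2 and ARE1. ERG10 had 228 FPKM in mdm34Δ, against 1572 FPKM in WT, a ratio of -2.78. ERG2 had 541 FPKM in mdm34Δ, against 2678 FPKM in WT, a ratio of -2.30. In the pair of mmm1Δ replicate 1, which shares this WT library, 2 were higher and 7 lower, beside 8.28% and 15.8%. The higher ones were again HES1 and UPC2, which passed the filter through the mmm1Δ library. Of genes with a mean of at least 50 FPKM, 35.0% were lower in that pair.

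Abundant genes as a whole were lower in the mutants of the first table. Among genes with a mean of at least 50 FPKM, the median ratio was -1.06 for mdm34Δ, with -1.04 for the members among them, and -0.65 for mmm1Δ replicate 1, with -0.70 for the members. In the second table, mmm1Δ replicate 2 had -0.13 over all such genes and -0.61 over the members, with 1 of the 33 genes higher and 6 lower beside 8.57% and 6.69% of all genes. With the trend with abundance removed, the members of mdm34Δ past 2-fold numbered 8 in place of 14, with 6 lower in place of 12. The part of abundance in the first table's lower values was not tested.

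In sam37Δ, 1 of the 33 genes was at least 2-fold higher and 6 lower than in WT replicate 2. The shares of all genes were 6.32% and 10.7%, and 16.7% of genes with a mean of at least 50 FPKM were lower. The median ratio over such abundant genes was -0.21, with -0.65 for the members among them. With the trend with abundance removed, 2 members were higher and 4 lower. HES1, the higher one, had 18.8 FPKM in sam37Δ, against 3.36 FPKM in WT, and passed the filter on low values through the sam37Δ library. ERG10, ERG13, ERG11, ERG5, CYB5 and ERG28 were the lower ones. ERG5 had 38.9 FPKM in sam37Δ, against 123 FPKM in WT, and ERG11 had 249 FPKM in sam37Δ, against 751 FPKM in WT. ERG28, the scaffold that holds the C-4 demethylation enzymes together, had 149.5 FPKM in sam37Δ, against 479 FPKM in WT. The 6 iron and heme proteins were all below 0, with a median of -1.14. The ratio of HMG1 to HMG2 was 0.687 in sam37Δ, against 1.54 in WT. UPC2 had 25.0 FPKM in sam37Δ, against 15.1 FPKM in WT, with ECM22 at 34.5 FPKM in sam37Δ and 20.7 FPKM in WT.

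VPS13-D716H is an allele that was compared with its own background in WT, mmm1Δ and sam37Δ. In the mmm1Δ background 4 genes were at least 2-fold lower with the allele (HES1, UPC2, ERG3 and ARE1) and 4 higher (ERG28, DAP1, ERG10 and ERG9). Beside these stood 12.0% and 9.43% of all genes. In the other backgrounds no ratio of the set passed 0.5 on the log2 scale. Over the 3 backgrounds limma called 0 of the 33 genes and 0.00% of all 6280 genes, in both directions. At an unadjusted p under 0.05 there were 0 of the 33 and 53 of all genes, in a fit whose 2 residual degrees of freedom also hold the differences between backgrounds.

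VPS13-D716H mmm1Δ had 2.65 FPKM of HES1, against 76.8 FPKM in mmm1Δ replicate 2, a ratio of -4.41. It thus lay near the 3.36 FPKM of WT replicate 2. HES1 passed the filter on low values in this ratio through mmm1Δ replicate 2. UPC2 had 8.51 FPKM in VPS13-D716H mmm1Δ, against 30.7 FPKM in mmm1Δ, below the 15.1 FPKM of WT. ERG3 had 442 FPKM in VPS13-D716H mmm1Δ, against 1108 FPKM in mmm1Δ, below the 989.7 FPKM of WT. ARE1, the sterol acyltransferase, had 27.8 FPKM in VPS13-D716H mmm1Δ, against 78.2 FPKM in mmm1Δ. These were the 4 genes of the 33 at least 2-fold lower, beside 12.0% of all genes.

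At least 2-fold higher were also 4 of the 33 genes, beside 9.43% of all genes: ERG28, DAP1, ERG10 and ERG9, the squalene synthase. ERG28 had 1046 FPKM in VPS13-D716H mmm1Δ, against 287 FPKM in mmm1Δ, and was the highest of the 7 libraries of its table, WT included at 479 FPKM. DAP1 had 298 FPKM in VPS13-D716H mmm1Δ, against 101 FPKM in mmm1Δ. ERG10 had 852 FPKM in VPS13-D716H mmm1Δ, against 377 FPKM in mmm1Δ and 866 FPKM in WT. The list of sterol uptake and mannoprotein genes had 7 of 9 at least 2-fold lower in VPS13-D716H mmm1Δ than in mmm1Δ, beside 12.0% of all genes. Their median was -3.53. DAN3, at 4.88 FPKM in VPS13-D716H mmm1Δ, passed the filter on low values through mmm1Δ replicate 2.

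Not every difference from WT was gone in the double mutant. Of the 7 members at least 2-fold from WT in mmm1Δ replicate 2, 4 were within 2-fold of WT in VPS13-D716H mmm1Δ (ERG10, ERG13, ERG7 and ERG5). Of these, ERG10 was near WT, at -0.02, while ERG13 and ERG5 were still at -0.69 and -0.75 over WT. ERG7 hardly moved, from -1.13 in mmm1Δ replicate 2 to -0.99 in VPS13-D716H mmm1Δ. HES1, at 2.65 FPKM in VPS13-D716H mmm1Δ and 3.36 FPKM in WT, was too low in both for a ratio. ERG11 had 325 FPKM and CYB5 had 164 FPKM there, against 751 and 464 FPKM in WT. Over WT, 1 of 32 members was at least 2-fold higher (ERG28) and 5 were lower (ERG1, ERG11, ERG25, ERG3 and CYB5), beside 11.7% and 11.6% of all genes. The ratio of HMG1 to HMG2 was 0.621 in VPS13-D716H mmm1Δ, close to the 0.696 of mmm1Δ and below the 1.54 of WT. The ratio of UPC2 to ECM22, at 0.255, was the lowest of all 12 libraries.

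In the WT background 0 of 32 members were at least 2-fold higher or lower with the allele, beside 2.21% and 2.09% of all genes, and all 32 ratios were within 0.5 on the log2 scale. In the sam37Δ background it was 0 of 33, beside 1.18% and 1.02%, again with all 33 within 0.5. HES1 had 24.5 FPKM in VPS13-D716H sam37Δ, against 18.8 FPKM in sam37Δ, and UPC2 had 24.6 FPKM in VPS13-D716H sam37Δ, against 25.0 FPKM in sam37Δ. Over WT, VPS13-D716H sam37Δ had 2 members higher (HES1 and NCP1) and the same 6 lower as sam37Δ, in comparisons that share the WT library. HES1 passed the filter there through the VPS13-D716H sam37Δ library. The shares of all genes were 6.81% and 10.9%, and 16.7% of genes with a mean of at least 50 FPKM were lower. In VPS13-D716H alone HES1 had 2.19 FPKM, against 3.36 FPKM in WT, both too low to enter the ratios.

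**Figure D3:**
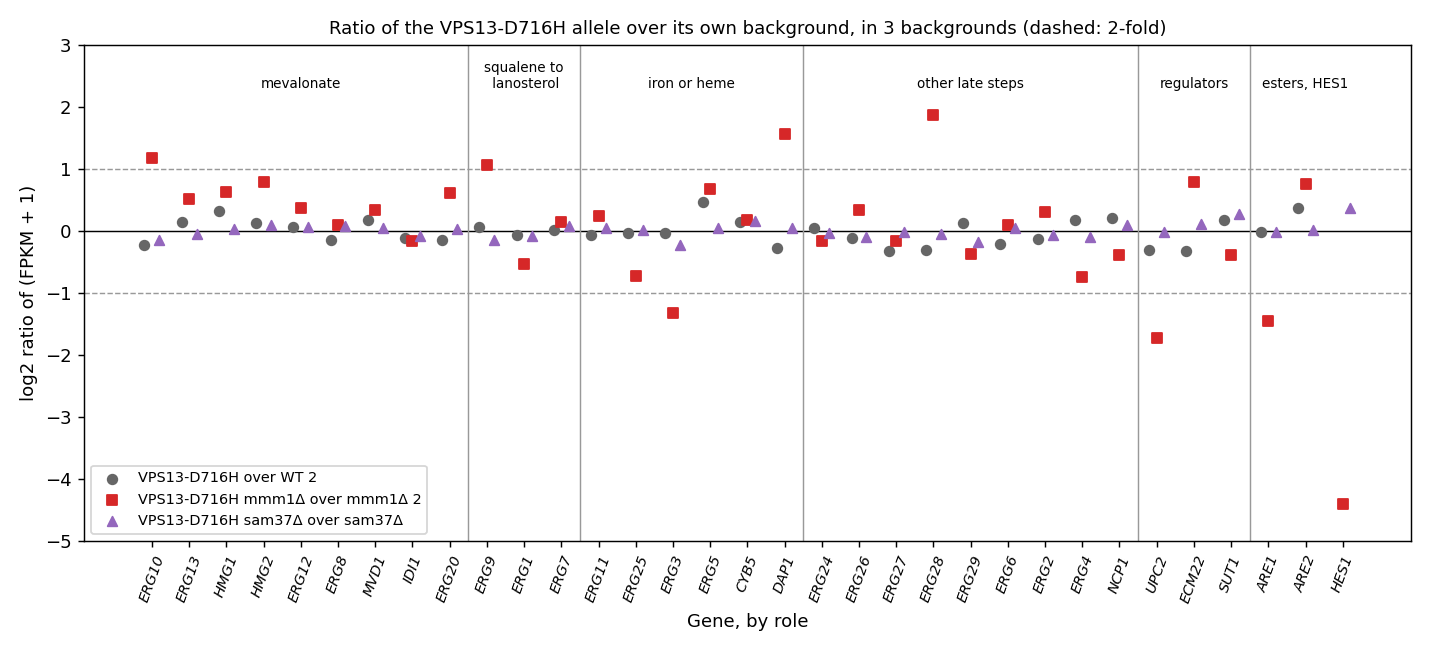
Log2 ratio of (FPKM + 1) of VPS13-D716H over its own background for each member, with 1 symbol per background and members ordered by role; dashed lines mark 2-fold. HES1 was at -4.41, passing the filter on low values through mmm1Δ replicate 2, and ERG28 at 1.86 in the mmm1Δ background. All ratios in the WT and sam37Δ backgrounds lay within 0.5.

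With BPS, members of the same stretch of the pathway took values on either side of the untreated library. Of the 33 genes 6 were at least 2-fold higher and 4 lower with BPS, beside 3.18% and 3.91% of all genes. The 4 lower genes were ERG1, ERG7, ERG11 and CYB5. ERG1 had 212 FPKM with BPS, against 439 FPKM without, and ERG7 had 39.3 FPKM with BPS, against 96.6 FPKM without, while ERG9, before them in the pathway, was at -0.01. ERG11 had 157 FPKM with BPS, against 445 FPKM without, a ratio of -1.49. CYB5 had 71.9 FPKM with BPS, against 197 FPKM without, a ratio of -1.44. ERG5, the other cytochrome P450, had 100.4 FPKM with BPS and 88.5 FPKM without. Of the 6 iron and heme genes 3 were above 0 and 3 below.

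ERG3, a non-heme iron enzyme, had 2207 FPKM with BPS, against 772 FPKM without, the highest level of any of the 33 genes in that library. The ratio of ERG3 to ERG11 was 14.0 with BPS, against 1.74 without. All 9 late genes outside the iron and heme group were above 0, with a median of 0.74. Of these, NCP1, the reductase that passes electrons to the cytochromes P450, had 565 FPKM with BPS, against 251 FPKM without, and ERG27, the keto reductase, had 542 FPKM with BPS, against 257 FPKM without. The 9 mevalonate genes had no ratio past 2-fold and a median of 0.22.

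Among regulators and ester genes, UPC2 had 51.8 FPKM with BPS, against 19.1 FPKM without, while ECM22 had 35.6 FPKM with BPS and 33.7 FPKM without. HES1 had 64.7 FPKM with BPS, against 6.28 FPKM without, a ratio of 3.18. ARE1 had 187 FPKM with BPS, against 75.7 FPKM without, and ARE2, the other sterol acyltransferase, had 67.0 FPKM with BPS and 66.0 FPKM without. The genes with the sterol regulatory core before them had a median of 0.53, between -1.44 (CYB5) and 1.51 (ERG3), so the core went with ratios of either sign. The 24 genes without it had a median of 0.205, between -1.49 and 3.18, and the difference was not tested. Of the 9 sterol uptake and mannoprotein genes 5 were at least 2-fold higher, beside 3.18% of all genes. Of these, TIR1 had 931 FPKM with BPS, against 214 FPKM without.

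**Figure D4:**
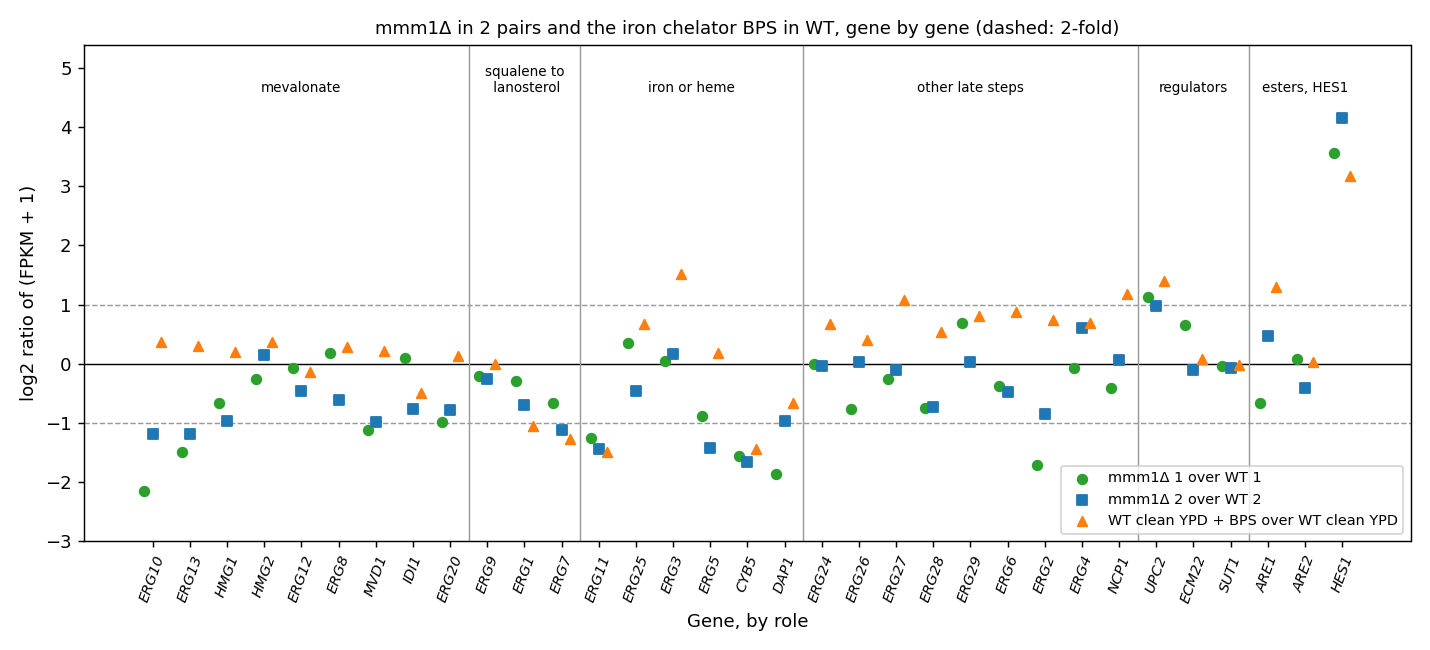
Log2 ratio of (FPKM + 1) for each member in the 2 mmm1Δ pairs and in BPS treatment, ordered by role, with dashed lines at 2-fold. HES1 and UPC2 were above 0 and ERG11 and CYB5 were below -1 in all 3, while ERG10 was at -2.16 and -1.20 in mmm1Δ and 0.37 with BPS. HES1 was under 5 FPKM in both YPD WT libraries.

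AFT1-C291F had the iron uptake genes on in rich medium, with FIT3, a cell wall mannoprotein of siderophore uptake, at 11634 FPKM, against 52.5 FPKM in WT replicate 2. HES1 was at 2.89 FPKM in AFT1-C291F, against 3.36 FPKM in WT. Of 32 members 4 were at least 2-fold higher and 3 lower, beside 15.6% and 14.2% of all genes. Both HMG-CoA reductase genes were among the higher ones: HMG1 had 131 FPKM in AFT1-C291F, against 42.5 FPKM in WT, and HMG2 had 79.8 FPKM in AFT1-C291F, against 27.7 FPKM in WT. Their ratio to each other was 1.65 in AFT1-C291F, against 1.54 in WT, where the second table's mmm1Δ and sam37Δ libraries had 0.621 to 0.696.

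NCP1 had 505 FPKM in AFT1-C291F, against 118 FPKM in WT, and ARE2 had 65.0 FPKM in AFT1-C291F, against 26.1 FPKM in WT. The 3 lower genes were CYB5, DAP1 and ERG28. CYB5 had 163 FPKM in AFT1-C291F, against 464 FPKM in WT, a ratio of -1.51. DAP1 had 54.6 FPKM in AFT1-C291F, against 198 FPKM in WT, a ratio of -1.84. ERG11 was at 603 FPKM in AFT1-C291F and 751 FPKM in WT, and ERG5 at 122 FPKM in AFT1-C291F and 123 FPKM in WT. Of the regulators, UPC2 had 25.3 FPKM in AFT1-C291F, against 15.1 FPKM in WT. ECM22 had 37.5 FPKM in AFT1-C291F, against 20.7 FPKM in WT.

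Taken table by table, FIT3 and HES1 did not always go together. In the first, mmm1Δ and mdm34Δ had 17547 and 14911 FPKM of FIT3 and 22.1 and 30.3 FPKM of HES1. WT there had 142 and 0.944 FPKM. In the second, mmm1Δ and both sam37Δ libraries had 10669 to 18121 FPKM of FIT3 and 18.8 to 76.8 FPKM of HES1. AFT1-C291F had 11634 and 2.89 FPKM, and VPS13-D716H mmm1Δ 2405 and 2.65 FPKM. VPS13-D716H and WT had 52.5 to 81.7 FPKM of FIT3 and 2.19 to 3.36 FPKM of HES1. In the third, FIT3 and HES1 had 51534 and 64.7 FPKM with BPS, against 356 and 6.28 FPKM without. CYB5 was between -1.37 and -1.67 in every ratio of a mutant or BPS over WT except VPS13-D716H alone, at 0.14. These ratios share WT libraries within each table.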

How the data were processed

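RNA was sequenced in 12 yeast libraries. The authors deposited FPKM values for 6660 genes in 3 tables, and TopHat2 2.0.8, Cuffdiff 2.0.2 and build sacCer3 are named per the submitters' processing notes, with no roles or settings. A TruSeq or a KAPA stranded kit was used, and the labels' protocols do not assign kits to libraries. Depth is unknown. In a search for steps of 1 read, 4.0 to 12.0% of 50 low values per library fell within 0.05 of whole multiples, so reads could not be recovered and counting error is not given. Each library lists 98 to 243 genes at 0. Ribosomal protein genes took 27.0 to 54.9% of the length-weighted FPKM.

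Ratios were formed within a table with a pseudocount of 1 and a minimum mean of 5 FPKM. For mmm1Δ, the two-sided test of limma 3.58.1 (R 4.3.3, with a mean-variance trend) had the replicate number as a block. The number is the table for these libraries, per the file columns, and deviations of same-numbered WT and mmm1Δ libraries correlated at r = 0.62 over 6029 genes. Its 1 residual degree of freedom was supplemented by 7.59 prior ones. For VPS13-D716H the mean ratio over 3 backgrounds was tested. Calls have a Benjamini-Hochberg adjusted p under 0.05 over all genes tested. Promoters were read from the RefSeq R64 genome, which has the coordinates of sacCer3. All 33 genes were found in its annotation by systematic name, and 30 had the same ends there as in the deposited values. The 33 genes, the lists and the tests were chosen with earlier results of these data known. Values are given for members past 2-fold in at least 3 of 11 ratios or called by limma, for the iron and heme enzymes and for the paralog pairs, and for the 2 genes per other list with the largest mmm1Δ or BPS ratio. Others named in the text were chosen after their values were seen. Alternatives were another pseudocount, no filter on low values, centring, removal of the trend with abundance, restriction to genes with no overlap and a length of 300 nt or more, no block, and leaving out each pair or background. Identity of paralogs was computed on coding sequences by global alignment with Biopython 1.88.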

Additional observations from a re-analysis of the deposited data

Results flagged for a closer look

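For 5 members the ratio of the VPS13-D716H allele over its background was at least 2-fold in the mmm1Δ background and of the other sign in the WT or the sam37Δ background. ERG10 had 1.17 in the mmm1Δ background, against -0.22 in WT and -0.14 in sam37Δ. ERG9 had 1.05 in the mmm1Δ background, against -0.15 in sam37Δ. DAP1 had 1.55 in the mmm1Δ background, against -0.27 in WT. ERG28 had 1.86 in the mmm1Δ background, against -0.31 in WT and -0.05 in sam37Δ. HES1 had -4.41 in the mmm1Δ background, where it passed the filter through mmm1Δ replicate 2, against 0.37 in sam37Δ. Each is a ratio of 1 library to 1 library, and the difference between backgrounds was not tested. The values in WT and sam37Δ were all within 0.5 of 0.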

How the results depend on the processing

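In mmm1Δ, HES1 rose alone among the 33 genes with the replicate block, and 226 of all genes were called. Without the replicate block, on centred values, 0 of the 33 and 0 of all genes were called by limma, with 256 of all genes at an unadjusted p under 0.05, and HES1 had a ratio of 3.70 (adjusted p = 0.207). With a pseudocount of 0.1 the calls were 3 of the 33 and 372 of all genes. With centring and the block they were 3 of the 33, and all genes split into 167 that rose and 139 that fell, against 165 and 61 as deposited. Among genes with no overlap and a length of 300 nt or more they were 9 of 30 members (2 rose, 7 fell) and 543 of all genes, in a fit with an infinite prior. The members' median was -0.29 and -0.46 with each pair alone. For VPS13-D716H the members' median was -0.02 to 0.11 with each background left out, and 0 genes were called each time. With the trend with abundance removed, mdm34Δ had 8 members past 2-fold, against 14. Centring moved the split of all genes in AFT1-C291F to 1072 higher and 757 lower, against 965 and 878. Causes of these shifts were not tested. Of 1069 alternative values for single genes, 980 kept their call or moved by less than the spread between pairs, and 32 had the other sign, in results that were at most 0.83 from 0 and not called. No called value changed sign.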

Other observations

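Of 15 sterol transfer genes tested with limma in mmm1Δ, 0 rose and 0 fell, beside 2.74% and 1.01% of all genes. The secreted sterol-binding proteins Pry1 and Pry2 had ratios of opposite sign. PRY1 had 1172 and 518 FPKM in mmm1Δ, against 385 and 132 FPKM in WT, a mean ratio of 1.78 (limma adjusted p = 0.0583). PRY2, which shares its locus with a dubious gene, had 159.9 and 278 FPKM in mmm1Δ, against 717 and 758 FPKM in WT, a mean ratio of -1.80 (adjusted p = 0.0613). PRY1 had 655 FPKM with BPS, against 154 FPKM without, and PRY2 had 766 FPKM with BPS and 632 FPKM without.

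No gene was called in mmm1Δ among 5 genes of sterol ester breakdown and acetylation (TGL1 at 0.58), 9 of HMG-CoA reductase turnover (CUE1 at -0.72) and 9 isoprenoid branch genes tested (RAM2 at -0.93). These counts of 0 stand beside the same shares of all genes. At an unadjusted p under 0.05 there were 3 of the sterol transfer genes, 0 of the ester genes, 0 of the turnover genes and 2 of the isoprenoid genes. With BPS the largest ratios in these lists were 0.95 for ATF2, 0.45 for HRD1 and -0.35 for COQ1. The sterol importer gene AUS1, chosen after its values were seen, had 104 FPKM in mmm1Δ replicate 2 and 6.40 FPKM in VPS13-D716H mmm1Δ, against 6.10 FPKM in WT replicate 2.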
